A study of Mus musculus with 10 samples.

Results

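The genes examined encode proteins that act in the release of neutrophil extracellular traps (NETs). They are *Padi4* and *Padi2*, *Gsdmd*, and *Hmgb1* and *Hmgb2*. They were taken by gene symbol from a list of 5 names, and all 5 were found among the 13091 genes of the deposited tables. The cells were neutrophils derived in culture from bone marrow progenitors of 129-SVEV mice. The progenitors had been immortalized with an estrogen-dependent HoxB8 and grown from single cells, so each line is 1 clone. PolyA RNA was sequenced from 2 *Vim*+/+ and 3 *Vim*-/- biological replicates of cells left unstimulated and as many given 25 ng/mL LPS (lipopolysaccharide, a bacterial outer membrane component that activates TLR4) for 1 hour. The labels do not say whether each replicate was another clone. The sample labels call the *Vim*-/- cells a knockdown, whereas the study's methods take them from knockout mice. There were 10 libraries in 4 groups, 6 of them *Vim*-/- and 4 *Vim*+/+, and 5 with LPS and 5 without.

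The value used for each gene was its mean normalized count, which is the authors' mean over all 10 libraries of read counts divided by library size factors. It is 1 pooled value per gene, so no spread between replicates and no level per genotype or treatment can be given from it. The other columns hold the authors' own comparisons of genotype and of LPS and were not used here, so no change of any gene between groups is reported. The levels below describe how abundant each transcript was across the whole experiment. They were not tested, and the order of genes with close values is uncertain. All 13091 genes had the same mean in each of the 4 tables. The median gene had 907 mean normalized counts and the lowest 5.08. *Vim* itself stood at 39926, a mean that takes in the *Vim*-/- libraries and therefore does not check the genotype labels.

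In the best described route to a NET, the peptidylarginine deiminase PAD4 enters the nucleus and converts arginines of histones to citrulline, and the chromatin loosens. Granule proteases and reactive oxygen species take part, and membrane pores formed by cleaved gasdermin D can help the chromatin to leave the cell. The high mobility group box proteins HMGB1 and HMGB2 bend DNA in the nucleus, and HMGB1 carried out of the cell on such chromatin is read as a danger signal by pattern recognition receptors.

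All 5 genes were located in GENCODE M21, an annotation of GRCm38, the build also known as mm10 to which the reads were aligned. *Padi4* (ENSMUSG00000025330.6) lies on the minus strand of chromosome 4 from 140745865 to 140774236, and *Padi2* (ENSMUSG00000028927.6) on the plus strand from 140906344 to 140952586. *Gsdmd* (ENSMUSG00000022575.5) lies on chromosome 15 from 75862327 to 75867408, on the plus strand. *Hmgb1* (ENSMUSG00000066551.12) covers chromosome 5 from 149046702 to 149184489 on the minus strand, and *Hmgb2* (ENSMUSG00000054717.7) covers chromosome 8 from 57511907 to 57515999 on the plus strand. Both deiminase genes therefore belong to 1 cluster, with 132107 bases between them.

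The promoters of the paired genes are shown because each pair differed in level, *Padi4* from its neighbour *Padi2* and *Hmgb2* from *Hmgb1*. Each sequence is the 250 bases before the start site in the RefSeq table for GRCm38.p6, read 5′ to 3′ on the strand of the gene. Capitals mark the letters TATAAA of a TATA box or CCAAT of a CCAAT box, searched on both strands. The positions are chr4:140774204-140774453 for *Padi4*, chr4:140906110-140906359 for *Padi2*, chr5:149053058-149053307 for *Hmgb1* and chr8:57511593-57511842 for *Hmgb2*. For *Hmgb1* the table holds a second start site, with its 250 bases at chr5:149051617-149051866, which is not printed. Both *Hmgb1* windows lie inside the GENCODE span of the gene, so annotated starts farther upstream have no window here. The table holds promoters for *Padi4*, *Padi2*, *Hmgb1* and *Hmgb2* but not for *Gsdmd*.
Padi4: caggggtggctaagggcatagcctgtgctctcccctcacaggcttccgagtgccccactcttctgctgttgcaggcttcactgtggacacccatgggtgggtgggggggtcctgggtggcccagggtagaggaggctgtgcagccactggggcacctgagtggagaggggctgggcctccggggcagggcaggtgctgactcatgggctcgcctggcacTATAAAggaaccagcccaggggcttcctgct
Padi2: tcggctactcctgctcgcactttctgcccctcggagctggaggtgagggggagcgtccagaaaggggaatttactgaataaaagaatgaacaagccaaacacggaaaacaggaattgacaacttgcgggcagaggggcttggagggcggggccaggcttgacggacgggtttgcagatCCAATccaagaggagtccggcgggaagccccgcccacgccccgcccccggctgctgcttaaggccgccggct
Hmgb1: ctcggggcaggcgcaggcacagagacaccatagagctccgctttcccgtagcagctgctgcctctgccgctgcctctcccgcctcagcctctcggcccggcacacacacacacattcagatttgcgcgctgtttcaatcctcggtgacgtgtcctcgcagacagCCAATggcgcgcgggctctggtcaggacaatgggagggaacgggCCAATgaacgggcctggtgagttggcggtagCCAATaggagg
Hmgb2: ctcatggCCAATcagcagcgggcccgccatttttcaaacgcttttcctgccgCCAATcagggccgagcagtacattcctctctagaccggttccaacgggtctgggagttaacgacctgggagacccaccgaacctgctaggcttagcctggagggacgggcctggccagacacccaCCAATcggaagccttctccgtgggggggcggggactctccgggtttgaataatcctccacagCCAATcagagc

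*Padi4* was the only one of these genes with TATAAA in its window, and these letters were present in 12.4% of the 32851 promoters of the table. *Padi4* had no CCAAT in the window, *Padi2* had 1, the first *Hmgb1* start site 3, the second 0 and *Hmgb2* 4, where 33.8% of all promoters held at least 1. The *Padi4* window held 3 CpG dinucleotides, at the 37.8th percentile of all promoters, whose median was 6. *Padi2* had 17, *Hmgb2* 14 and the *Hmgb1* start sites 19 and 39. The letters GGGCGG of a GC box were found 3 times in *Padi2*, once in *Hmgb2*, 4 times at the second *Hmgb1* start site and nowhere in the *Padi4* or first *Hmgb1* window, and were present in 32.7% of all promoters. GAGGAA, the core recognised by the myeloid factor PU.1, was present once in *Hmgb2*, in none of the other windows, and in 23.3% of all promoters. These matches describe the letters of the windows, and no factor binding was measured. Whether they bear on the levels of the genes was not tested.

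*Padi4* and *Padi2* encode deiminases that convert peptidyl arginine to citrulline. PAD4 is the enzyme mainly linked to histone citrullination in neutrophils, whereas PAD2 is found in many tissues and has been studied most in the nervous system and in macrophages. *Padi4* had 18921 mean normalized counts, rank 501 of 13091 genes, which placed it at the 96.2nd percentile. *Padi2* had 498 mean normalized counts, rank 7868, at the 39.9th percentile and below the median gene. Per kilobase of annotated exons, *Padi4* stood at 3913 and *Padi2* at 99.3 mean normalized counts, a ratio of 39.4. With the longest transcript or the coding length in place of all exons the ratio of levels per kilobase was 60.0 and 38.4. No 100-base window of the *Padi4* transcript with the longest coding region (2316 bases) was identical to a transcript of another annotated gene, and its longer transcripts were not searched. Exons of *Padi2* shared 149 bases with an antisense transcript, *Gm13031*, which was not among the genes of the tables.

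The other members of the deiminase family, *Padi1*, *Padi3* and *Padi6*, were not among the genes of the tables. All of them lie in the same cluster, *Padi6* 3222 bases from *Padi4* and *Padi3* and *Padi1* in the interval between *Padi4* and *Padi2*. The level of *Padi4* also stood above those of the genes that flank the cluster. *Rcc2*, which encodes a regulator of chromosome condensation, had 1629 and *Sdhb*, which encodes a subunit of mitochondrial complex II, had 1654 mean normalized counts per kilobase of exons.

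**Figure D1:**
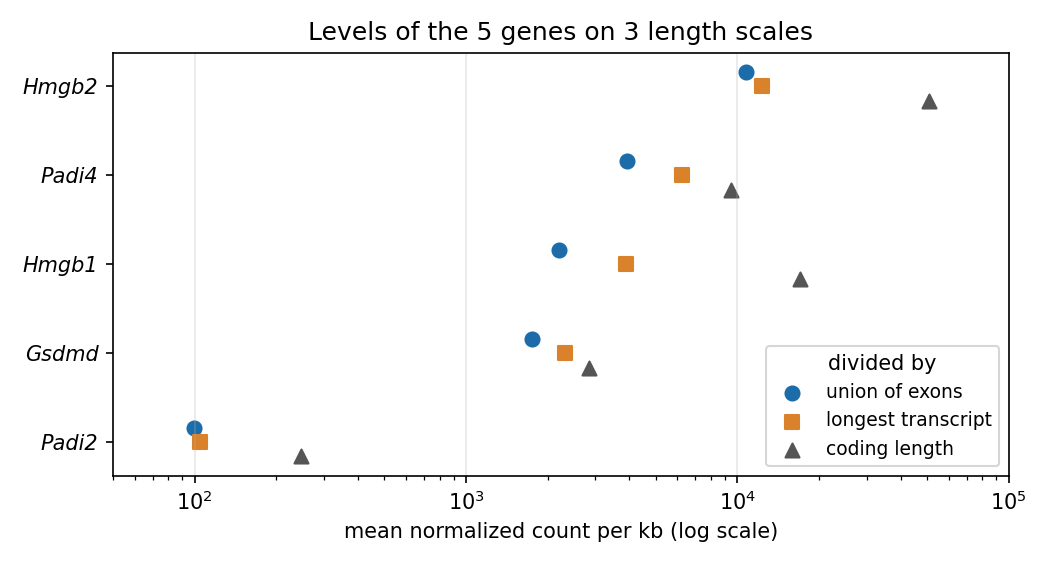
Mean normalized count per kilobase (horizontal, log scale) of each of the 5 genes, divided by the union of annotated exons (circles), the longest transcript (squares) or the coding length (triangles). *Hmgb2* is highest and *Padi2* lowest on every scale, while *Hmgb1* lies below *Padi4* on the first 2 scales and above it by coding length (17075 against 9456).

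*Gsdmd* encodes gasdermin D, which is cut by inflammatory caspases and by neutrophil elastase to free a fragment that forms membrane pores. It had 4155 mean normalized counts, rank 2526, at the 80.7th percentile. Per kilobase of exons its level was 1748 mean normalized counts, 7.63 times the median of 229 over the 12021 genes with a length. *Padi4* was 2.24 times as high as *Gsdmd* per kilobase of exons and 3.33 times as high by coding length, with the ratio by the longest transcript between these. No other annotated gene overlapped *Gsdmd* or shared a 100-base window with its 1792-base transcript.

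Genes that act beside *Gsdmd* in lytic cell death are given here as a list of 8 with *Gsdmd* itself, of which 7 were in the tables. *Gsdme*, which encodes another pore-forming gasdermin, was the one not listed. *Ninj1*, whose product ruptures the plasma membrane after pores have formed, was the highest of the list at 4315 mean normalized counts per kilobase of exons, and *Gsdmd* came next. The genes of inflammatory caspases that cut gasdermin D stood lower, *Casp1* at 602 and *Casp4* at 198 mean normalized counts per kilobase of exons. *Casp4* encodes the mouse caspase-11 that senses LPS inside the cell. *Casp4* was the only one of the 7 below the median of all genes per kilobase of exons, while in mean normalized count *Casp1* (902) and *Casp4* (736) were both below the median gene. *Casp8*, a caspase of apoptosis, was at 1171, and *Ripk3* and *Mlkl*, the kinase and the effector of necroptosis, were at 459 and 549 mean normalized counts per kilobase of exons.

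*Hmgb2* was the most abundant of the 5 genes, with 32255 mean normalized counts, rank 245, at the 98.1st percentile. *Hmgb1* had 11064 mean normalized counts, rank 954, at the 92.7th percentile. Per kilobase of exons the levels were 10741 and 2203 mean normalized counts, a ratio of 4.88, and the ratio was 3.15 with the longest transcript and 2.98 by coding length. The difference between these ratios goes with the annotation of *Hmgb1*, whose 10 transcripts together cover 1.77 times the length of the longest, against 1.14 times for *Hmgb2*. *Hmgb3*, which encodes the third protein of this family with a known role in blood stem cells, was at 440 mean normalized counts per kilobase of exons, so that *Hmgb2* was 24.4 times as high.

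Among the 5 genes, the mRNA of *Hmgb1* had the largest share of its sequence in common with other annotated genes. Of the 2739 windows of 100 bases in its transcript with the longest coding region, 906 (33.1%) were identical to a stretch of at least 1 of 52 other annotated genes, 51 of which are pseudogenes. For *Hmgb2*, 506 of 2529 windows were shared with 5 pseudogenes. None of these pseudogenes was among the genes of the tables. The remaining gene that shared windows with *Hmgb1* is the protein-coding *Ppm1e*, with 13 windows, which was in the tables at 696 mean normalized counts. The windows are shorter than the study's reads, so the share of windows is not a share of reads. The sources used here do not say how reads that match several places were counted. The amount of *Hmgb1* and *Hmgb2* signal lost to or gained from such copies was therefore not tested. *Hmgb1* also spans *Gm8615*, a transcribed pseudogene within its introns at 595 mean normalized counts, and its exons share 42 bases with the opposite-strand gene *Uspl1* and 37 with the noncoding *Mm2pr*.

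**Figure D2:**
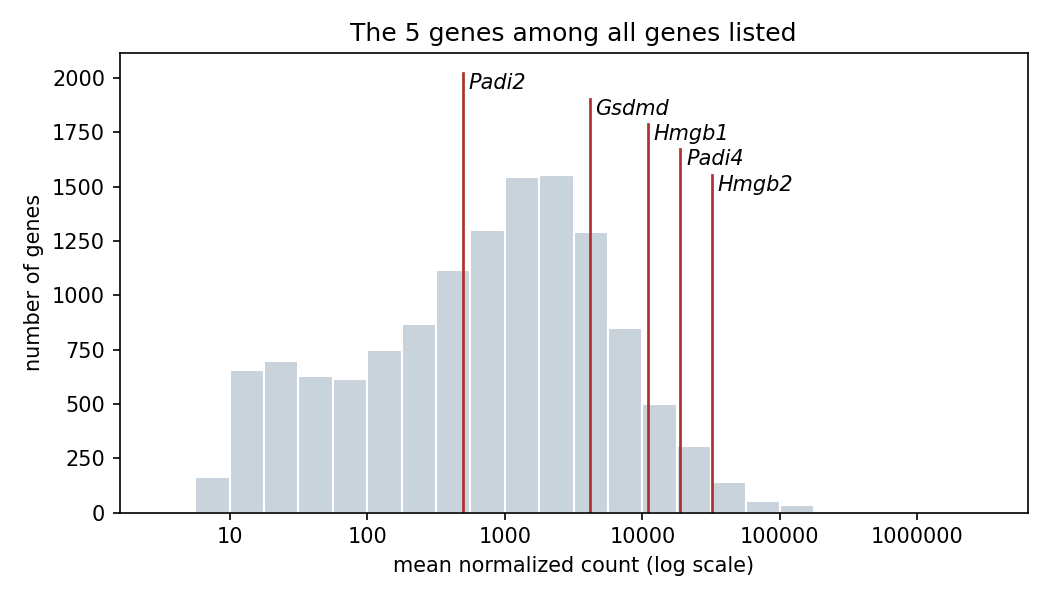
Number of genes (vertical) by mean normalized count over all libraries (horizontal, log scale) for the 13091 genes, with a red line at each of the 5 genes. *Padi2* at 498 lies left of the peak of the distribution and the other 4, from 4155 to 32255, lie to its right.

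The list of high mobility group genes held 6 genes, all of them in the tables and all above the median of all genes per kilobase of exons. *Hmgn2*, which encodes a nucleosome-binding protein, was at 9828 mean normalized counts per kilobase of exons, below *Hmgb2* on that scale but above it by the longest transcript (13929 against 12274) and by coding length (88973 against 50955). *Hmga1*, which encodes an AT-hook protein of chromatin, was at 2506 and *Hmgn1* at 772 mean normalized counts per kilobase of exons. *Hmga1* was above *Hmgb1* on that scale but below it by the longest transcript (2661 against 3899) and by coding length (14918 against 17075). Receptors proposed for HMGB1 outside the cell covered a wide range. *Tlr2* and *Tlr4*, receptors for bacterial lipoproteins and LPS, were at 2883 and 956 mean normalized counts per kilobase of exons. *Ager*, which encodes the receptor RAGE, and *Tlr9*, the endosomal receptor for DNA, were at 135 and 39.5 and so below the median of all genes.

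The proteins that ride on NETs came from abundant transcripts. All 7 granule genes of the list were in the tables, from *Ctsg* (cathepsin G) at 11118 to *Camp* (the cathelicidin precursor) at 133544 mean normalized counts per kilobase of exons. Against *Hmgb2*, the highest of the 5 genes, *Ctsg* was higher per kilobase of exons (11118 against 10741) but lower by the longest transcript (11462 against 12274) and by coding length (14612 against 50955). *Elane* was also below *Hmgb2* by coding length, at 27501. Per kilobase of exons *Elane*, which encodes the elastase that moves to the nucleus and cuts histones, was at 22303 and *Mpo*, the myeloperoxidase that goes with it, at 35561. The level of *Padi4* was 0.175 times that of *Elane* per kilobase of exons, 0.281 times by the longest transcript and 0.344 times by coding length. Against *Mpo* it was 0.110, 0.141 and 0.168 times as high on the same scales. The 6 NADPH oxidase genes, which feed NET release with oxidants, ranged from 5694 for *Cybb* to 53326 for *Cyba*, all above *Padi4*.

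Kinases that carry the signal for NET release were listed as 10 genes, all in the tables, and 9 lay above the median of all genes per kilobase of exons. *Mapk3*, which encodes ERK1, was the highest at 15863 mean normalized counts per kilobase of exons. *Prkcd* (protein kinase C delta) at 4949, *Akt1* at 4804 and *Syk* at 3545 followed. *Syk* was below *Padi4* per kilobase of exons and by the longest transcript (6189 against 6263) but above it by coding length (17561 against 9456). *Prkcb* and *Prkca*, which encode the conventional protein kinases C beta and alpha, were at 258 and 73.9, the latter below the median. *Cdk4* and *Cdk6*, cell cycle kinases that have been linked to NET release, were at 1339 and 348.

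**Figure D3:**
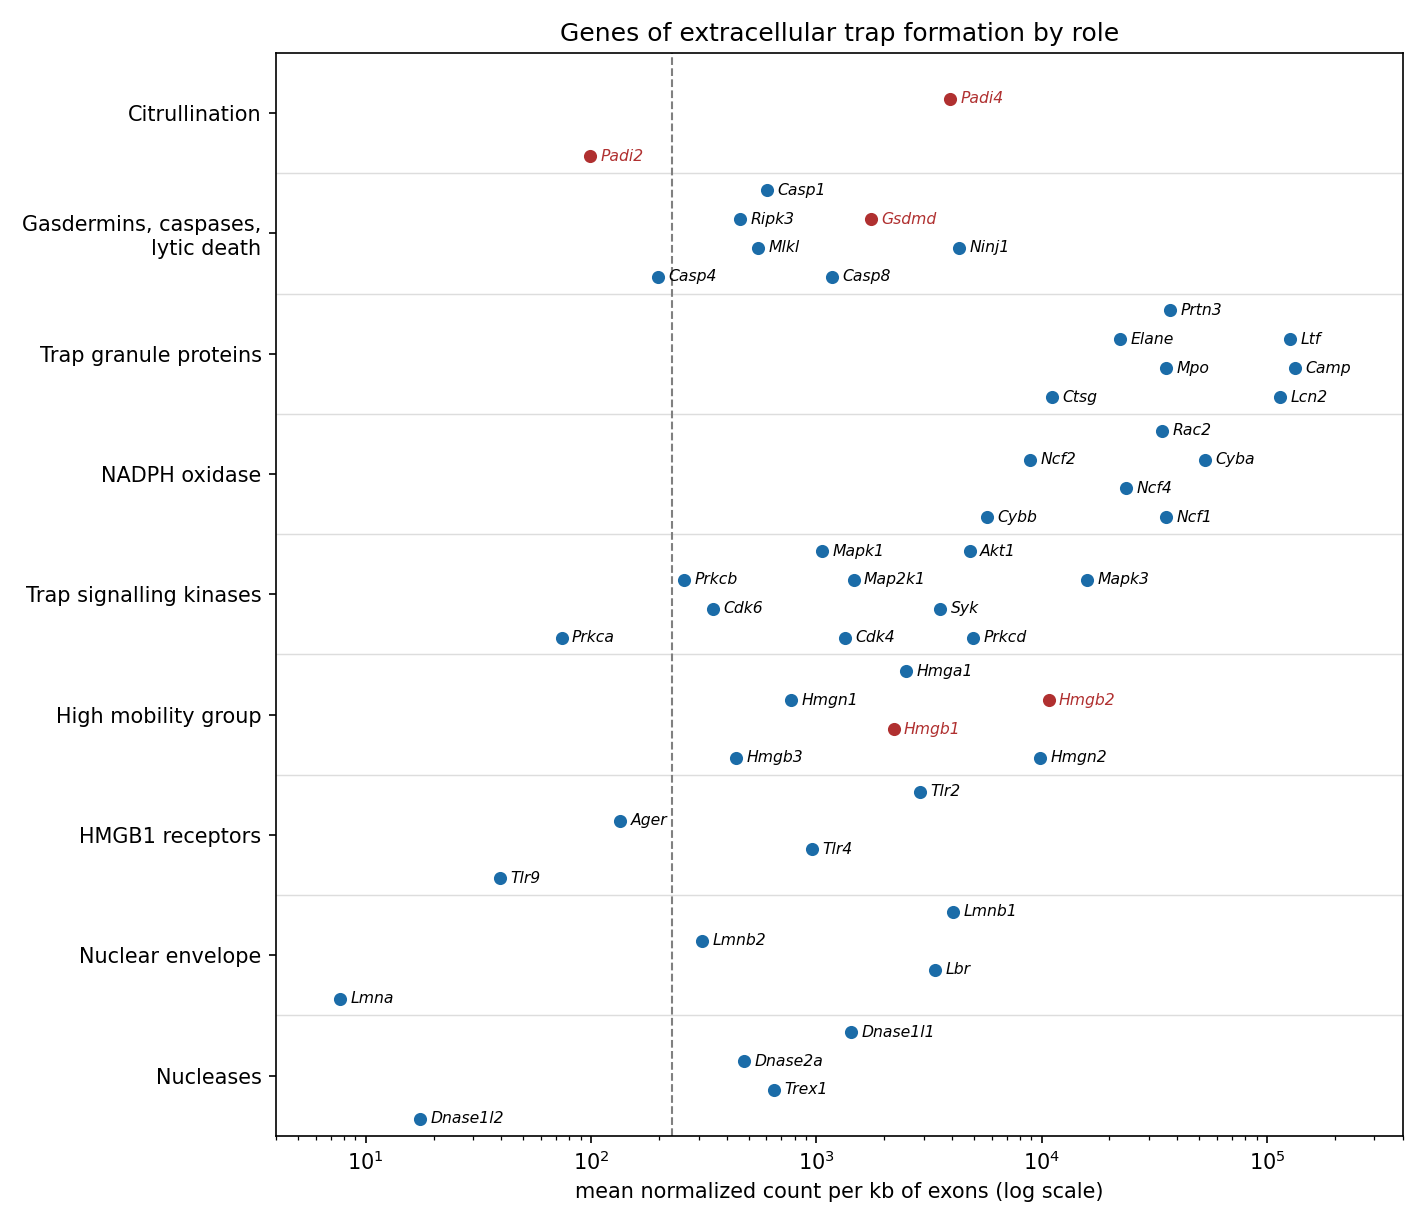
Mean normalized count per kilobase of exons (horizontal, log scale) of each listed gene, in rows by role, with the 5 genes of interest in red, the others in blue and a dashed line at the median of all genes (229). Height within a row only separates the labels. The granule and oxidase genes lie at 5694 or above, to the right of *Padi4*, *Gsdmd* and *Hmgb1*, and *Padi2* lies left of the dashed line.

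The label of the cells was checked against marker genes. All 9 neutrophil markers were in the tables, from *Cxcr2* at 11897 to *S100a9* at 2472855.0 mean normalized counts per kilobase of exons, and *S100a9* was the most abundant gene of all by mean normalized count. *Ly6g*, the surface antigen that defines mouse neutrophils, was at 12073. Defining markers of T cells (*Cd3e*, *Cd3g*) and erythroid cells (*Klf1*, *Hbb-bs*) were not among the genes of the tables, and the B cell marker *Cd79a* was at 57.5. Eosinophil markers were abundant, however, with *Prg2* (major basic protein) at 320189 and *Epx* (eosinophil peroxidase) at 52165 mean normalized counts per kilobase of exons. On that scale both were above every neutrophil marker of the list except *S100a8* and *S100a9*, the next highest being *Mmp9* at 43297. By coding length *Epx* was below *Mmp9* (66377 against 69871.5). How far the cells were neutrophils alone was not tested. *Cpa3*, a protease gene of mast cells and basophils, was at 17334 and *Mcpt8*, a basophil protease gene, at 2808. *Adgre1*, which encodes the macrophage and eosinophil antigen F4/80, was at 3111 and *Csf1r*, which encodes the receptor for macrophage colony-stimulating factor, at 566.

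Transcripts of dividing cells were present too, and *Hmgb2* is a gene known for high expression in proliferating cells. *Mki67* was at 1847 and *Top2a* at 1352 mean normalized counts per kilobase of exons, both above the median of all genes, and the progenitor genes *Kit* and *Cd34* were at 121 and 352. In bulk RNA, fewer cells of a type and less RNA per cell cannot be told apart. The part that dividing, eosinophil or other cells had in the levels of *Hmgb2*, *Hmgb1*, *Padi4*, *Padi2* and *Gsdmd* was not tested.

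**Figure D4:**
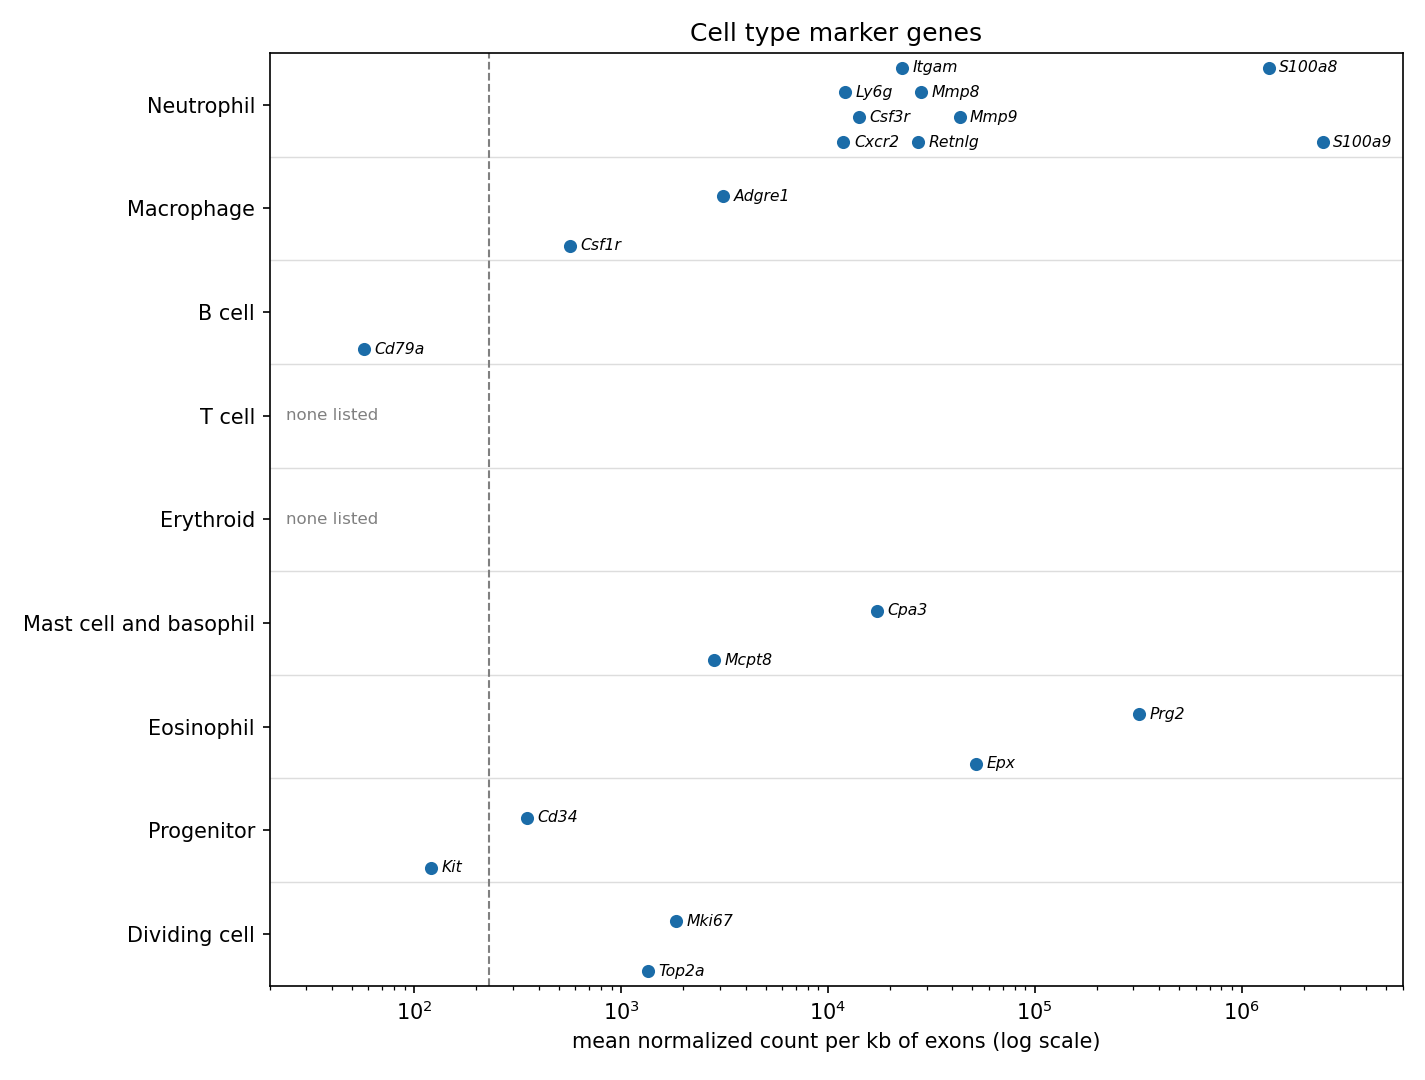
Mean normalized count per kilobase of exons (horizontal, log scale) of cell type marker genes, in rows by the cell type they mark, with a dashed line at the median of all genes (229). Height within a row only separates the labels. The 9 neutrophil markers start at 11897, the eosinophil markers *Epx* and *Prg2* lie at 52165 and 320189, and rows with no gene in the tables are marked as such.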

How the data were processed

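RNA was sequenced from 10 libraries of *Vim*+/+ and *Vim*-/- neutrophils with and without LPS, grouped by the sample titles. The study's methods and the submitters' processing notes give trimming with cutadapt 4.4, alignment and quantification on mm10 with STAR 2.7.10b, covariates from RUVSeq, and DESeq2 1.26.0 for normalization and testing. The gene annotation, the strand setting and the treatment of multiply mapped reads were not given in the sources used here. The deposited signal used is baseMean, the authors' mean over all libraries of counts divided by size factors. The authors' log2 fold changes, standard errors, Wald statistics, p-values and adjusted p-values of 4 comparisons were not used, and the deposited tables hold no values per library, so the planned count models could not be fitted. Depth per library is unknown, and no interval can be given.

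Levels were divided by the union of exons in GENCODE M21 (main), the longest transcript or the coding length, matched by symbol for 12021 genes (91.8%). Percentiles count genes at or below a value. Windows of 100 bases of each member's transcript with the longest coding region were compared on both strands with all GENCODE transcripts. Motifs were counted in the 250 bases upstream of RefSeq start sites. The members and gene lists were chosen with earlier results of these data known, and all members and list genes are those named, except 4 list genes that are not reported here. The motifs were chosen after the promoters were seen. Genes flanking the deiminase cluster and those overlapping members were named after their values were seen. Functions were tested on simulated data. Python 3.11.15, numpy 2.4.6, pandas 2.3.3 and matplotlib 3.10.9 were used.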

Additional observations from a re-analysis of the deposited data

How the results depend on the processing

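With the longest transcript in place of the union of exons, the levels were 6263 for *Padi4*, 104 for *Padi2*, 2319 for *Gsdmd*, 3899 for *Hmgb1* and 12274 for *Hmgb2*, in mean normalized counts per kilobase. With the coding length they were 9456, 246, 2838, 17075 and 50955 in the same order, so that *Hmgb1* passed *Padi4*, and the rest of the order was kept. Coding length leaves out untranslated regions, from which reads also come, and the longest *Hmgb1* transcript is 4.38 times its coding length. Among the 10321 genes with a mean of at least 100 the percentiles were 95.2 for *Padi4*, 23.8 for *Padi2*, 75.5 for *Gsdmd*, 90.8 for *Hmgb1* and 97.6 for *Hmgb2*. Ranked per kilobase of exons they were 94.4, 33.9, 87.2, 89.7 and 97.9 in the same order. No paired analysis was possible because the deposited tables hold no values per library, and for the same reason no library could be left out, no block fitted and no other normalization tried. A pooled mean also gives more weight to the 6 *Vim*-/- than to the 4 *Vim*+/+ libraries.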

Other observations

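Genes of the nuclear envelope, which must open before chromatin can leave the nucleus, differed widely in level. *Lmnb1*, which encodes lamin B1, was at 4043 mean normalized counts per kilobase of exons and *Lbr*, which encodes the lamin B receptor needed for lobed nuclei, at 3379. *Lmnb2* was at 312, whereas *Lmna*, which encodes the A-type lamins, was at 7.69, at the 6.75th percentile of genes with a length.

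Nucleases that can degrade trap DNA were listed as 6 genes, of which 4 were in the tables. The secreted enzymes that digest NETs in blood are encoded by *Dnase1* and *Dnase1l3*, and neither was listed. *Dnase1l1* was at 1425, *Trex1*, a cytosolic exonuclease, at 651, *Dnase2a*, the lysosomal nuclease, at 477, and *Dnase1l2* at 17.4 mean normalized counts per kilobase of exons. These are pooled levels over all 10 libraries with no test.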
